A study of Mus musculus with 6 samples.

Results

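Translation initiation factor genes were taken as the protein-coding genes of the GRCm38 gene table whose symbol starts with Eif and a digit from 1 to 6, which gave 56 of 21883 genes. Of these, 15 have eIF2 symbols, 14 have eIF3 symbols, 17 have eIF4 symbols and 10 have Eif1, Eif5 or Eif6 symbols. The symbol rule also takes in the eIF2 kinases, the eIF4E-binding proteins and eIF5A, which act on or beside initiation. The genes were studied in the mouse embryonal carcinoma line P19, grown undifferentiated in MEM alpha with 10% fetal bovine serum and given no other treatment. Histone H3 crotonylated (H3K9cr) or acetylated (H3K9ac) at lysine 9 was precipitated from native, uncrosslinked chromatin in 2 replicates with 1 antibody per mark, so a property of an antibody and of its mark cannot be told apart. All libraries come from 1 cell line, and the 2 input libraries were not analysed here.

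Initiation factors bring the small ribosomal subunit and the initiator tRNA to a messenger RNA and hold them until the start codon is found. eIF4F binds the cap and unwinds the message, eIF3 bridges it to the small subunit, and eIF2 delivers the initiator tRNA in a complex with GTP. eIF2 is recharged by eIF2B, and kinases that phosphorylate eIF2 under stress slow that step in most cell types. Acetylation and crotonylation of H3K9 are both found mainly around the starts of transcribed genes.

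Each library had its own list of peaks, with 28360 and 28345 peaks for H3K9cr and 26096 and 27474 for H3K9ac. The lists carry no read depth, so values have no counting interval, and a gene without a listed peak may still hold the mark below the authors' threshold. A gene was counted as marked where at least 1 bp of a peak lay within its span or 2.5 kb of it. Fold enrichment is the authors' value per peak, the ratio of the pileup at the summit to a local background. It was therefore read as a percentile within its own list, where 100 is the strongest peak. Series of 4 values below are in the order H3K9cr replicate 1, H3K9cr replicate 2, H3K9ac replicate 1 and H3K9ac replicate 2. The 5 markers of undifferentiated cells (Pou5f1, Sox2, Nanog, Lin28a and Utf1) all had peaks in all 4 libraries, with median percentiles from 84.4 to 89.99, although Nanog lay at 43.9, 40.2, 29.3 and 22.5. Peaks in all libraries were present at 3 of 5 fibroblast markers (not Col3a1 and Postn), 1 of 3 liver markers (not Alb and Ttr) and 3 of 3 neuron markers, with medians from 43.6 to 61.5 over those with a peak.

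Promoter sequences from RefSeq on GRCm38.p6 were matched to 44 of the 56 genes. The stretches below show the contrast in CpG content between strongly marked genes, with fewer CpG at Eif3b than at Eif4a3. They also cover a gene with no peak, the gene with the most CpG, and the X- and Y-linked copies of the eIF2 gamma gene. Each holds 150 bases before the start and 10 from it, 5′ to 3′ on the strand of the gene, and capitals mark CG dinucleotides.
Eif3b: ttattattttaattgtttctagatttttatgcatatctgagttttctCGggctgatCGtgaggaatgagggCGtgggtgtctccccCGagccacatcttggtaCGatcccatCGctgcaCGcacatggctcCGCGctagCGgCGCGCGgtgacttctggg
Eif4a3: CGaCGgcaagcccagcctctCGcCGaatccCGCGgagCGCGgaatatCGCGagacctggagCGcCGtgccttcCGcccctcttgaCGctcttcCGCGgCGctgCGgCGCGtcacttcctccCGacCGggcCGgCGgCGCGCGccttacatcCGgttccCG
Eif4a3l1: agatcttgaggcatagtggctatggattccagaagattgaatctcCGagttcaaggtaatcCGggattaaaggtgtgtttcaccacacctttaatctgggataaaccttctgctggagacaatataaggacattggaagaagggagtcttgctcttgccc
Eif1b: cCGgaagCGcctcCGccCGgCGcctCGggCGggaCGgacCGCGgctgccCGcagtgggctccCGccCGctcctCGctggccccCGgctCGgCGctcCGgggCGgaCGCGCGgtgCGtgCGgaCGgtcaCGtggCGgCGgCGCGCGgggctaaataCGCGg
Eif2s3x: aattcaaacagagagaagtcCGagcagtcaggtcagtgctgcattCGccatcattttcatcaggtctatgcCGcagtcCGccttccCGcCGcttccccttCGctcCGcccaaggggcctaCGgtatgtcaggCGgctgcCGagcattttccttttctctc
Eif2s3y: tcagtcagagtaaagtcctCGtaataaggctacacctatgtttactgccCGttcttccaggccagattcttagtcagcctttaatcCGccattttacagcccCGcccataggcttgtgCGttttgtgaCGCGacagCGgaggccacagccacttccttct
The Eif3b stretch is chr5:140419155-140419314 on the plus strand, with 13 CG. The Eif4a3 stretch, chr11:119300034-119300193 on the minus strand, has 29, whereas that of its unmarked relative Eif4a3l1, chr6:136327389-136327548 on the plus strand, has 2. The Eif1b stretch, chr9:120492456-120492615 on the plus strand, has 33. The X-linked Eif2s3x stretch, chrX:94212642-94212801 on the minus strand, has 11, and the Y-linked Eif2s3y stretch, chrY:1010445-1010604 on the plus strand, has 8.

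Nearly all initiation factor genes had peaks of both marks in the gene or within 2.5 kb of it. A peak was present in all 4 libraries at 53 of 56 (94.6%), beside 67.9% of all protein-coding genes. That was 15 of 15 genes with eIF2 symbols, 13 of 14 with eIF3 symbols, 15 of 17 with eIF4 symbols and 10 of 10 others. No peak was listed in any library for 3 genes, beside 29.5% of all genes. None of the 56 genes had a peak in both libraries of 1 mark and neither of the other, a pattern of 0.21% of all genes for H3K9cr alone and 0.032% for H3K9ac alone. At these genes the lists therefore gave no case of 1 mark alone.

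The 3 genes without a peak were Eif4a3l1, Eif4ebp3 and Eif3j2. Eif4a3l1 (chr6:136327539-136329983), a relative of the eIF4A3 helicase gene, had its nearest peak 88157, 88150, 88132 and 88127 bp from the gene record. Eif3j2 (chr18:43475418-43477836), a second gene for the eIF3j subunit, had it 36653, 36675, 36694 and 36669 bp away. Both lay far from any peak in every library. Eif4ebp3 (chr18:36664060-36666324) encodes an eIF4E-binding repressor, and its nearest peak was 2962, 2910, 3022 and 2804 bp away. That peak lay just outside the window of 2.5 kb in all 4 libraries, so this gene's count rests on the width of the window.

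Median peak strength by fold enrichment was highest for eIF3 symbols among the 3 symbol groups, with small differences between the marks; differences between the groups were not tested. For the 53 genes with peaks, the strongest peak of the median gene lay at the percentiles 88.6, 90.8, 90.2 and 92.3, beside 77.3, 77.3, 75.2 and 76.7 for all 14862 genes with a peak in every library. Among these 53, 25, 27, 28 and 29 genes lay above the 90th percentile, beside 24%, 24%, 22% and 23.2% of all such genes. These counts correspond to 47.2%, 50.9%, 52.8% and 54.7% of the 53. The median was highest for eIF3 symbols, at 95.1, 96.1, 95.6 and 95.1 (mean 95.5 ± 0.479, SD over 4 libraries). It was 88.4, 89.3, 87.1 and 91.8 for eIF4 symbols (89.1 ± 1.96) and 85.6, 87.1, 82.6 and 88.3 for eIF2 symbols (85.9 ± 2.48). The eIF3 median was above the other 2 medians in every library, while eIF4 and eIF2 ranges overlapped. Above the 90th percentile lay 9, 10, 11 and 11 of 13 genes for eIF3, 4, 5, 4 and 5 of 15 for eIF2 and 7, 7, 7 and 8 of 15 for eIF4.

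The order of the groups depended in part on the measure of strength. When peaks were ranked by the deposited pileup, without division by the local background, the eIF4 medians were 93.5, 94.7, 93.2 and 94.0, beside 93.9, 94.5, 94.8 and 93.8 for eIF3. The eIF2 medians were lowest under this ranking too, at 82.3, 82.9, 82.1 and 84.3. Between the marks, the group median was higher for H3K9cr than H3K9ac by 0.914 percentile points for eIF2 and by 0.239 for eIF3, and differed by -0.607 for eIF4. An exact two-sided permutation test of 2 libraries against 2 gave p = 1 for each of these 3 differences, where the smallest p it can give is 0.333. All 3 were smaller than the SD of the 4 libraries.

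**Figure D1:**
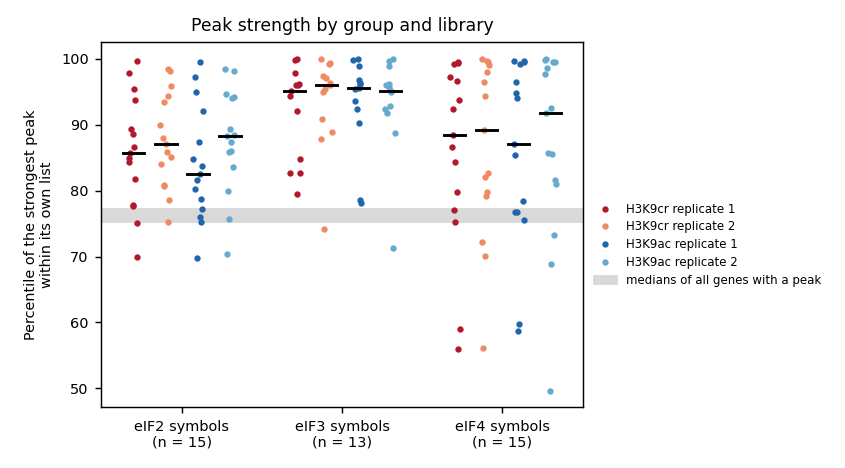
Percentile of each gene's strongest peak within its own list (vertical axis) for eIF2, eIF3 and eIF4 symbols, by library; each dot is a gene, black bars are medians and the grey band spans the 4 medians of all genes with a peak. The eIF3 medians (95.1 to 96.1) lie above those of eIF2 and eIF4 in every library, and single eIF4 genes fall below 60.

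The genes Eif1, Eif1b, Eif1a, Eif1ax, Eif1ad, Eif5, Eif5b and Eif6 spanned percentiles from 77.3 to 99.97. Eif1a (chr18:46597704-46610225), a gene for eIF1A, which keeps the scanning ribosome open with eIF1, had fold enrichments of 243, 252, 203 and 246. They lay at percentiles from 99.85 to 99.97 of their lists, the highest mean of the 53 genes. Its strongest peak in H3K9cr replicate 1 also held an end of Tmed7. The X-linked paralog Eif1ax (chrX:159372178-159389621) had 67.01, 56.5, 61.2 and 88.8, at percentiles from 77.3 to 86.0, below Eif1a in every library. Eif1a is autosomal, and the number of gene copies per cell was not measured. Eif1 (chr11:100319949-100322099), the start-codon fidelity factor, lay at the percentiles 99.1, 97.8, 97.4 and 95.3. Its paralog Eif1b (chr9:120492606-120495327) lay at 83.7, 80.0, 81.6 and 86.3, so this pair did not overlap either. Eif1b, the lower of the pair, is the gene with the CpG-rich stretch printed above. Eif5, whose product triggers GTP hydrolysis by eIF2, lay at 99.7, 97.9, 99.6 and 99.7, among the highest of the set. Eif5b, which joins the ribosomal subunits, had 88.0, 85.2, 90.1 and 84.7. Eif6, an anti-association factor of the large subunit, lay at percentiles from 93.03 to 95.97 and Eif1ad at 82.5 to 88.7. Eif5a, which also acts in elongation, had 95.5, 97.9, 97.9 and 96.1 and its paralog Eif5a2 75.1, 74.1, 77.3 and 80.0, again without overlap. Except in H3K9cr replicate 2, the Eif5a values are those of a peak inside the gene that holds no gene end. The peak at its end lay at 90.6, 97.9, 88.1 and 95.9, also above Eif5a2.

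The subunits of eIF2 itself were marked unequally. Eif2s1 (chr12:78862072-78887010), for the alpha subunit that the stress kinases phosphorylate, had fold enrichments of 139, 150.1, 112 and 169, at percentiles from 97.3 to 98.2. Eif2s2 (chr2:154871410-154892906), for the beta subunit, had 187, 154, 150 and 177, at percentiles from 98.5 to 99.6. Both lay near the top of every list. The gamma subunit is encoded on both sex chromosomes. Eif2s3x (chrX:94188709-94212651) had 67.2, 71.9, 61.2 and 89.0 at the percentiles 81.8, 84.03, 83.8 and 86.0, and Eif2s3y (chrY:1010562-1049134) had 44.0, 52.6, 38.4 and 50.4 at the percentiles 69.9, 75.3, 69.8 and 70.4. The Y copy was lower than the X copy in each library, and both were lower than the alpha and beta genes, which are autosomal. The number of gene copies per cell was not measured, and its part in these differences was not tested. Peaks covered the starts of both copies, whose printed stretches have 11 and 8 CG, in all libraries.

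The eIF2B subunits, which exchange GDP for GTP on eIF2, were less spread. Eif2b1 led at the percentiles 95.4, 95.9, 95.0 and 94.7, and Eif2b4 followed at 88.6, 89.99, 87.3 and 89.4. Eif2b5, the catalytic epsilon subunit, lay at 86.6, 87.1, 82.6 and 87.3, Eif2b3 at 84.3, 80.8, 80.3 and 85.9 and Eif2b2 at 77.7, 85.8, 77.1 and 88.3. Only Eif2b1 was above 90 in every library, and the ranges of the other 4 overlapped in part. The strongest peaks of Eif2b1 and Eif2b4 in H3K9cr replicate 1 also held an end of Gtf2h3 and of Snx17, and a peak over both genes cannot be assigned to either.

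The 4 kinases of eIF2 lay lower than the alpha and beta subunit genes they act through. Eif2ak1, the kinase that senses heme, had the percentiles 85.6, 93.4, 78.8 and 94.0. Eif2ak4, which senses amino acid shortage, had 89.4, 87.9, 84.8 and 88.4. Eif2ak3, which senses stress of the endoplasmic reticulum, had 75.0, 80.7, 75.2 and 79.9, and Eif2ak2, which senses double-stranded RNA, had 77.8, 78.6, 76.0 and 75.8. Eif2ak2 and Eif2ak3 were thus the lowest of the 4 in all libraries. Eif2a, a single-chain factor that can bring initiator tRNA without eIF2, lay at 93.8, 94.3, 92.1 and 94.2. Eif2d, which can do so as well, lay at 84.9, 85.0, 81.6 and 83.6.

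The eIF3 complex, the largest initiation factor, had the highest median fold-enrichment percentile of the 3 symbol groups. Eif3b (chr5:140419305-140443358), a core scaffold subunit, had fold enrichments of 201, 235, 176 and 277, at percentiles from 99.77 to 99.96, and Eif3a (chr19:60761116-60790693), the largest subunit, had 209, 174, 185 and 225, at percentiles from 99.17 to 99.88. Both ranked directly after Eif1a by mean percentile. Eif3d, the subunit that can bind the cap of some messages, lay at 97.9, 99.3, 98.9 and 98.8. Eif3h, Eif3k, Eif3c and Eif3m lay between 94.3 and 97.4 in every library, and Eif3f between 92.3 and 95.1. Eif3j1, a loosely bound subunit, lay at 92.1, 87.9, 90.2 and 92.9 while its second gene Eif3j2 had no peak.

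The remaining 4 eIF3 genes moved between libraries rather than between marks. Eif3l lay at the percentiles 84.8, 88.9, 93.6 and 88.7. Eif3i, a beta-propeller subunit, had fold enrichments of 62.0, 120, 50.7 and 134, which placed it at 79.5, 95.4, 78.2 and 95.1. Eif3g, an RNA-binding subunit, lay at 82.7, 90.8, 78.5 and 91.8. Both Eif3i and Eif3g were low in replicate 1 and high in replicate 2 of both marks. Eif3e (chr15:43250040-43282736) had fold enrichments of 69.3, 50.3, 104 and 52.4 at the percentiles 82.7, 74.2, 96.1 and 71.3, a range of 24.8 points and the widest of the 53 genes. Its H3K9ac replicate 1 was high and the other 3 were lower. Ranked by pileup, Eif3e lay at 93.5, 92.5, 95.2 and 93.8 and Eif3i at 90.8, 93.2, 90.2 and 92.7, both within a narrower range. The local background implied by the deposited values, in units of pileup, was 4, 6, 1.73 and 7 at Eif3e and 4, 2.04, 3.46 and 1.99 at Eif3i. At Eif3b it was 2, 2.04, 1.73 and 1.99. A range above 10 points was seen at 6 genes (Eif2ak1, Eif2b2, Eif3e, Eif3g, Eif3i and Eif4enif1), and the median range of the 53 was 4.10 points.

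**Figure D2:**
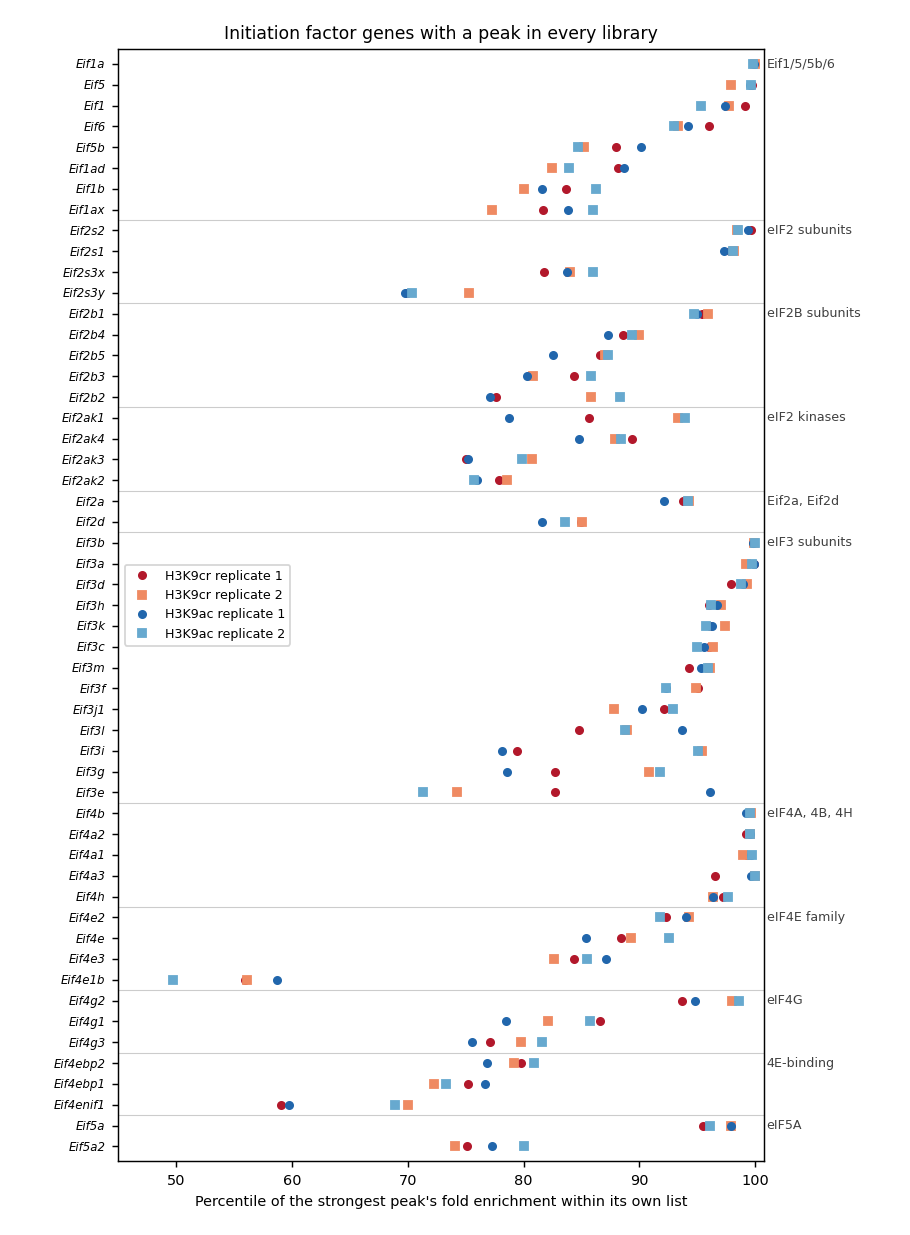
Percentile of the strongest peak's fold enrichment within its own list (horizontal axis) for the 53 genes with a peak in every library, grouped by role and ordered by mean; circles are replicates 1 and squares replicates 2 of H3K9cr (red) and H3K9ac (blue). Eif1a, Eif3b and Eif3a lie at the right edge in all libraries, Eif4e1b lies lowest, and Eif3e has the widest spread.

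Within eIF4, the genes of the helicase and its partners had medians of 99.2, 99.5, 99.6 and 99.5, and of the cap-binding and scaffold genes only Eif4g2, in replicate 2 of both marks, reached the range of this group. Eif4a1 (chr11:69666936-69672423) had fold enrichments of 170.0, 168, 158 and 230 and Eif4a2 (chr16:23107468-23114132) had 165, 191, 155 and 215. All 8 values lay between the percentiles 98.97 and 99.74, and the 2 paralogs of the eIF4A helicase overlapped. Eif4a3 (chr11:119288363-119300043), the helicase of the exon junction complex, had 126, 262, 161 and 299 at the percentiles 96.6, 99.99, 99.7 and 99.98. Its relative Eif4a3l1, whose CpG-poor stretch is printed above, had no peak in any library. Eif4b, a partner of the helicase, lay between 99.2 and 99.7, and Eif4h, a related partner, between 96.4 and 97.6. All 5 of these genes with a peak were thus above the 90th percentile in all libraries.

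The cap-binding genes spanned the widest range of the set. Eif4e (chr3:138526191-138559696), the main cap-binding protein, had fold enrichments of 84.9, 88.7, 64.9 and 117 at the percentiles 88.4, 89.3, 85.4 and 92.6. Eif4e2, a cap-binding repressor, lay at 92.3, 94.3, 94.1 and 91.8 and Eif4e3 at 84.4, 82.7, 87.1 and 85.5. The Eif4e3 values are those of a peak inside the gene that holds no gene end. The peak at its end, shared with Gpr27, lay at 65.7, 61.7, 57.5 and 59.9. Eif4e1b (chr13:54783994-54788459), a relative known from oocytes, had 24.9, 24.1, 26.0 and 21.7 at the percentiles 55.9, 56.1, 58.7 and 49.7. It was the lowest of the 53 genes on average, and below Eif4e in every library. Its single peak in each library lay outside the gene record, starting at 54789380, 54789398, 54789379 and 54789416. Eif4e1b was thus counted through the window of 2.5 kb, and its values are those of a peak beside the gene.

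The scaffold genes of eIF4F were intermediate. Eif4g1, the main scaffold, lay at the percentiles 86.6, 82.1, 78.5 and 85.7 and its paralog Eif4g3 at 77.1, 79.8, 75.6 and 81.6, and their ranges overlapped. Eif4g2, a relative that lacks the eIF4E-binding part and serves cap-independent initiation, was higher than both at 93.7, 97.98, 94.8 and 98.6. Among the proteins that bind eIF4E, Eif4ebp1 lay at 75.2, 72.2, 76.7 and 73.3 and Eif4ebp2 at 79.8, 79.2, 76.8 and 80.9. Both are repressors released by mTORC1 signalling, and by fold enrichment both lay close to the median of all genes. By pileup Eif4ebp1 lay at 94.99, 95.9, 93.2 and 95.2, with an implied background of 6, 8, 4.32 and 7. Eif4enif1, a transporter of eIF4E into the nucleus, lay at 59.0, 70.0, 59.8 and 68.9, the lowest but 1 of the set. By pileup it lay at 93.5, 94.7, 94.8 and 94.0. Its peak also held an end of Sfi1, and its implied background of 11.2, 8.11, 9.30 and 7.88 was several times that at Eif3b. The low percentiles of Eif4ebp1 and Eif4enif1 thus stood beside a high pileup and a high background.

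The order of the 53 genes was close to the same in all libraries. By fold enrichment, Spearman's rho across genes was 0.914 for the H3K9cr pair and 0.872 for the H3K9ac pair. Between the marks it was 0.947 for replicates 1 and 0.974 for replicates 2, and 0.902 and 0.879 for unlike replicate numbers. By pileup all 6 values lay between 0.979 and 0.989. Genes are not independent replicates, and these libraries share the cell line, so the values describe the lists. By fold enrichment, libraries of the same replicate number were closest, whichever the mark. The implied local background had the same pattern, with rho of 0.829 and 0.774 between same-numbered libraries and from 0.334 to 0.502 for the other 4 pairs. Which input served which library is not given in the labels, and the part of the background in these values was not tested.

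Peak width told the marks apart no more firmly. Summed over the 56 genes, peaks covered 144 and 148 kb in the H3K9cr libraries and 131 and 142 kb in the H3K9ac libraries (146 ± 2.35 against 136 ± 7.80 kb, SD, n = 2 each). The difference of 10.04 kb gave p = 0.333 in the exact permutation test, the smallest it can give. It was 4.53 kb without H3K9ac replicate 1 and 15.6 kb without H3K9ac replicate 2. Over all protein-coding genes the totals were 41962 and 42742 kb for H3K9cr and 37926 and 40940 kb for H3K9ac, which also put H3K9cr higher. Median covered length over the 53 genes was 2423, 2453, 2291 and 2392 bp, close to the 2380.5, 2428.5, 2196 and 2342 bp of all genes with a peak in every library. By group the medians were 1943, 2075, 1809 and 1883 bp for eIF2, 2091, 2239, 2019 and 2093 bp for eIF3 and 3210, 3374, 2676 and 3168 bp for eIF4. By median, eIF3 symbols thus had covered lengths nearer to eIF2, while the windows of eIF4 symbols held the greatest covered length of the 3 in every library. Covered length also counts peaks in the window that overlap only a neighbour. Such peaks lay at Eif4a1, Eif4b and Eif4g1 and also at Eif3d and Eif3k.

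Covered length was compared between the marks gene by gene with limma on a log2 scale, after centring each library on its median. None of 14862 genes passed an adjusted p of 0.05 (0%; smallest adjusted p 0.567), and none of the 53 initiation factor genes did. At an unadjusted p under 0.05, 882 genes (5.93%) were listed, 684 of them (4.6%) wider for H3K9cr. That included 3 of the 53, all wider for H3K9cr. The median difference was -0.0012 over the 53 genes and -0.0083 over all, and 26 of 53 were wider for H3K9cr, beside 47.1% of all genes tested. Without centring the medians were 0.083 and 0.076. Width relative to the library thus showed no difference that passed the test.

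The largest differences in width lay at 2 eIF3 genes and a kinase gene. Peaks covered 5757, 5715, 4504 and 4251 bp at Eif3a, where the H3K9cr values were above both H3K9ac values (log2 difference 0.31, SE 0.0748, limma adjusted p = 0.601). The peak reached 4636 and 4647 bp downstream of the Eif3a start for H3K9cr and 3015 and 3215 bp for H3K9ac, but 1035 to 1120 bp upstream in all libraries. The H3K9cr peaks thus ran further into Eif3a than the H3K9ac peaks, while their upstream edges lay close together. At Eif3k, peaks covered 3716, 3512, 2783 and 2870 bp (0.27, SE 0.0651, limma adjusted p = 0.599), again with both H3K9cr values higher. At Eif2ak4 the values were 1151, 1590, 1048 and 1086 bp (0.26, SE 0.166, limma adjusted p = 0.895), where H3K9cr replicate 2 had an extra weak peak of 337 bp. The difference was 0.04 without that library and 0.48 without H3K9cr replicate 1. At Eif4e they were 3210, 3443, 2676 and 2943 bp (0.16, SE 0.0597, limma adjusted p = 0.837). The Eif4e region was 1 peak in each H3K9cr list and 2 peaks in each H3K9ac list. In the other direction the largest were Eif2s3y with 1681, 2143, 1739 and 2314 bp (-0.16, SE 0.159, limma adjusted p = 0.903), Eif4e3 with 4102, 4092, 3960 and 4639 bp (-0.15, SE 0.0661, limma adjusted p = 0.886) and Eif4ebp1 with 3395, 3374, 3308 and 3751 bp (-0.14, SE 0.0597, limma adjusted p = 0.873). At Eif2s3y the replicates of each mark differed more than the marks did, and the difference was -0.01 without H3K9cr replicate 1 or H3K9ac replicate 2 and -0.33 without either of the others. At Eif4e3 it was -0.08 without H3K9ac replicate 2.

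**Figure D3:**
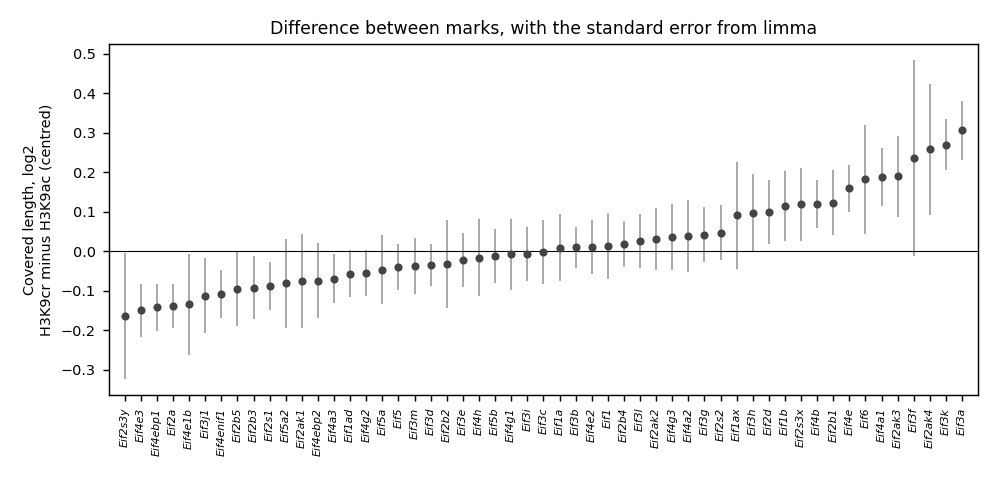
Difference in covered length between the marks (vertical axis, log2, H3K9cr minus H3K9ac, each library centred on its median) for 53 genes in order of size; points are estimates and bars the standard error from limma. Estimates run from -0.16 at Eif2s3y to 0.31 at Eif3a, and 26 of 53 lie above 0, beside 47.1% of all genes tested.

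Peaks sat over the starts of most initiation factor genes. Of the 44 genes with a RefSeq start, 37 (84.1%) had that start under a peak in all 4 libraries, beside 53.6% of 17491 genes. The summit of the covering peak lay a median of 302, 304, 306 and 316 bp downstream of the start, and downstream at 29, 30, 29 and 30 of the 37. Those counts are 78.4%, 81.1%, 78.4% and 81.1% of the 37, near the 77.7%, 77.1%, 78.2% and 78.0% of all genes with a covered start. Over all such genes the median distances were 281, 296, 295 and 292 bp. Peaks reached a median of 870, 856, 730 and 879 bp upstream and 1455, 1499, 1378 and 1395 bp downstream, beside 812, 833, 742 and 796 bp and 1207, 1234, 1151 and 1197 bp over all genes. The downstream side was the longer one in every library. Eif3b was an exception, with its summit 825, 824, 810 and 814 bp upstream of the start, so its strongest point lay before the stretch printed above.

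At 5 of the 44 genes (11.4%), the start fell into a gap between flanking peaks in at least 1 library, beside 3.2% of all genes. These were Eif2ak3, Eif3k, Eif4a1, Eif2b2 and Eif4b. The gap was present in all 4 libraries at 2 of them, beside 0.858% of all genes. Both shares of all genes include genes without a peak, which cannot show a gap. A share among marked genes was not computed, so the contrast may follow from how many genes are marked. The gap measured 351, 369, 376 and 369 bp at Eif2ak3 and 307, 305, 327 and 309 bp at Eif4a1, and so was of nearly the same length under both marks. Eif4b had gaps of 289, 260 and 293 bp in all libraries but H3K9cr replicate 1. Eif2b2 had gaps of 266 and 282 bp in replicate 1 of each mark and a single peak in replicate 2.

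Eif3k was the 1 gene whose start was covered under H3K9cr and not under H3K9ac in both replicates, beside 0.429% of all genes. The reverse was seen at 0 of the 44 genes, beside 0.0972%. A single H3K9cr peak of 3761 and 3654 bp ran over the starts of Eif3k and of Map4k1, a kinase gene that starts 162 bp away on the other strand. In the H3K9ac lists this was split into an Eif3k peak of 928 and 999 bp and a Map4k1 peak of 1855 and 1871 bp, 269 and 273 bp apart. The summit lay 371, 369, 360 and 356 bp downstream of the Eif3k start, so the strongest point was in the same place under both marks. The peak caller decides where 1 peak ends and the next begins, with options not known here.

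**Figure D4:**
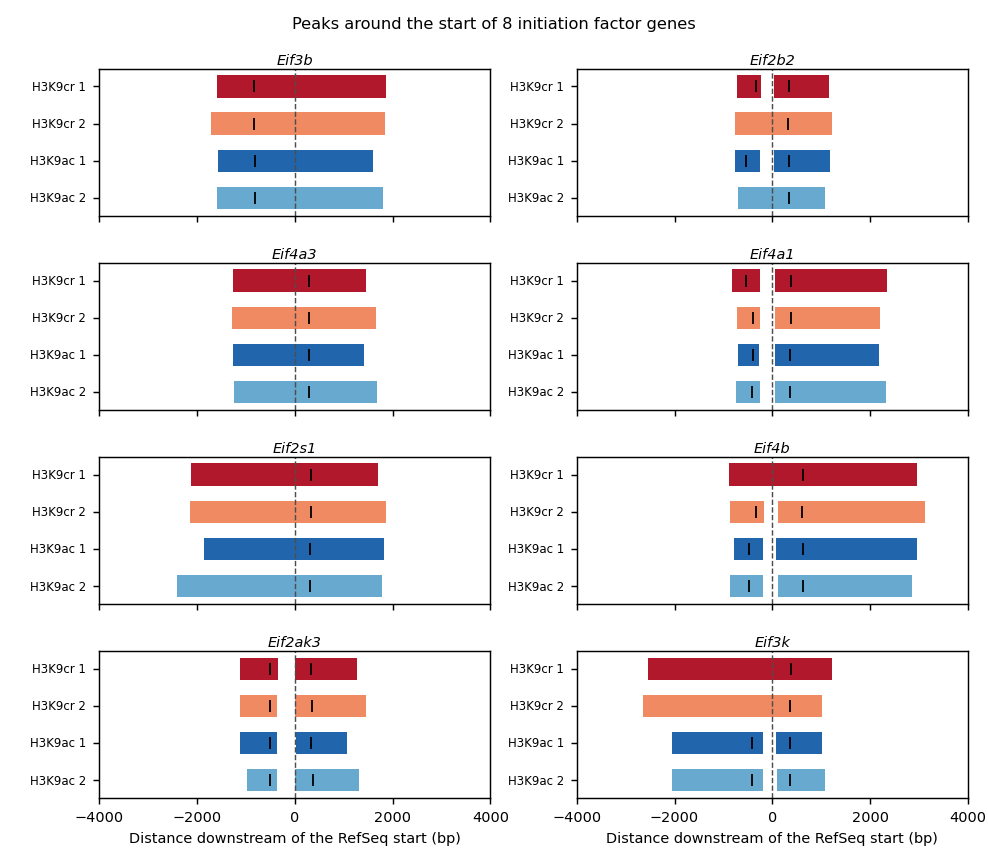
Peaks (bars) and their summits (ticks) around the RefSeq start (dashed line) of 8 genes in each of the 4 libraries, by distance downstream of the start in bp. Eif2ak3 and Eif4a1 have a gap over the start in all libraries, Eif3k in the H3K9ac libraries, and the Eif3b summit lies upstream.

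Some of these promoters were shared with another gene, and most had at least 20 CpG. A gene on the other strand started within 1 kb at 9 of 44 genes (20.5%), beside 12.3% of all genes with a RefSeq start. These pairs were Eif2b1 with Gtf2h3 at 17 bp, Eif1b with D830035M03Rik at 25 bp, Eif3m with Gm38521 at 94 bp, Eif5a2 with 1700112D23Rik at 155 bp, Eif3k with Map4k1 at 162 bp, Eif2b4 with Snx17 at 165 bp, Eif2s1 with Atp6v1d at 434 bp, Eif1ad with Banf1 at 450 bp and Eif5b with Txndc9 at 802 bp. In H3K9cr replicate 1 the strongest peak held an end of the gene itself at 45 of 53 genes, and at 11 an end of another gene. A peak over such a pair cannot be assigned to 1 gene of it. These peak counts were not made over all genes, so they do not show whether the 53 genes differ from others. Over the 300 bases of each RefSeq promoter (250 before the start and 50 from it), the median CpG count was 23.5 for the 44 genes, beside 13 for all and 22 for all genes whose start was under a peak in all libraries. The lowest count was 3, at unmarked Eif4a3l1, and the highest 50, at Eif1b. At least 20 CpG were present at 30 of 44 (68.2%), beside 36.1% of all genes. CpG content was thus high against all genes and near that of marked genes.

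Short motifs were searched on both strands of the same 300 bases. GGGCGG, the GC box, was present in 32 of 44 promoters (72.7%), beside 46.3% of all and 69.9% of all with a start under a peak in every library. CCGGAAG, the core of ETS factor sites, was present in 14 (31.8%), beside 11.9% and 18.3%. CACGTG, the E-box that Myc and its relatives bind, was present in 8 (18.2%), beside 7.91% and 10.4%. These 8 were Eif1b, Eif3a, Eif3f, Eif3k, Eif4a1, Eif4g1, Eif4h and Eif5a2. CCAAT was present in 14 (31.8%), beside 39.2% and 37.1%, and TATAAA in 4 (9.09%), beside 13.3% and 5.77%. A C at the start followed by 4 pyrimidines, read on the gene's strand only as the opening of a terminal oligopyrimidine tract, was present at 2 genes, Eif2s3x and Eif3f (4.55%, beside 2.17% and 2.30%). The motifs overlap the CpG count, and a match describes letters in the window and not a bound site.

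The other genes of the pathway were marked broadly too. Of 62 genes listed by function, 61 had a peak in all 4 libraries, beside 67.9% of all protein-coding genes. That was 12 of 12 genes listed under elongation, which include the enzymes Eef2k, Eef1akmt1, Dhps and Dohh beside the factors. It was 9 of 9 termination and recycling factors and 16 of 17 poly(A)-binding and accessory proteins. The rest were 12 of 12 genes of mTORC1 and MNK signalling, 10 of 10 of the integrated stress response and 2 of 2 mitochondrial initiation factors. The exception was Pabpc1l, a poly(A)-binding protein gene known from oocytes, with a peak in replicate 2 of each mark only, at the percentiles 15.4 and 8.97. Median percentiles were 88.2, 92.5, 89.4 and 92.3 for the elongation list and 96.3, 96.5, 91.5 and 96.3 for the integrated stress response. The median of the 4 eIF2 kinases, which set off that response, was lower in each library, at 81.7, 84.3, 77.4 and 84.1. The mTORC1 and MNK genes lay at 86.6, 78.5, 87.1 and 79.2.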

How the data were processed

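Peak lists of 2 H3K9cr and 2 H3K9ac libraries from P19 cells were analysed, grouped and numbered as the labels give them. The authors deposited 1 list per library. Bowtie2 2.4.1, MACS2 2.2.7.1 and the build GRCm38 are named in the submitters' processing notes, without options. Each row holds, per the file headers, a position, a length, a summit, a pileup (the coverage signal at the summit), a -log10 p-value, a -log10 q-value and a fold enrichment. The deposited -log10 q was at least 2.02 in every list. Pileup steps of the deposited signal were 0.94, 0.71, 1 and 0.98, so it appears scaled in all lists but H3K9ac replicate 1. Fold enrichment and pileup were therefore ranked within a list only. The lists hold no depth.

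Genes, spans and symbols came from a RefSeq gene table of GRCm38, and starts, strand and promoters from RefSeq (upstream-most start). For 12 of 56 genes no start was used. The implied background is pileup plus 1, divided by fold enrichment, minus 1. The log2 of covered length, less the median of its library, was tested with limma 3.58.1 (R 4.3.3) over all genes with a peak in every library (trend, Benjamini-Hochberg adjustment). Other steps used Python 3.11.15, numpy 2.4.6, pandas 2.3.3 and matplotlib 3.10.9. Group medians and totals were compared by exact permutation. The methods were tested on simulated data. Core subunits, paralog pairs, genes without peaks and the extremes of percentile and width were named, with all other members given as values or ranges. The members and gene lists were chosen with earlier results of these data known. One list of markers is not reported here.

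The alternatives were a window of 1 kb around gene ends, a -log10 q of at least 5, lists of equal length, a summit inside the window, ranking by pileup, base pairs instead of log2, no centring, genes with a peak in any library (100 bp added), a replicate block, and leaving out each library. The design text calls the replicates biological, and nothing says that equal numbers pair the libraries.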

Additional observations from a re-analysis of the deposited data

How the results depend on the processing

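Of 193 values recomputed under the alternatives, 180 met the following limits: differences kept their direction and side of the threshold, counts lay within 1.5 times, and percentiles and the median width difference within 1 SD. Sizes could still move, as in the total covered length, which differed by 4.07 kb between marks within 1 kb of gene ends, and the median width difference, which was 0.0115 with lists of equal length. Counts of genes with peaks in all libraries, of genes with 1 mark alone and of genes past the threshold in covered length were among the 180. Some of the 180 had little or no room to move. The replicate block cannot change a width difference in this balanced design. Percentiles were set on the full lists, and group percentiles were identical under the limits on q, list length and summit. Ranked by pileup, the mean group percentile became 82.9 for eIF2, 94.2 for eIF3 and 93.8 for eIF4, and the difference between marks -0.593, -0.0818 and 0.463. Within 1 kb of gene ends the eIF4 difference was 0.249 and the Eif3a width difference -0.044. This last value is no test, since 13 genes, Eif3a among them, had the same covered length in all libraries in that window, and the value is the difference in centring. Leaving out 1 library each, the difference between marks ranged from -1.97 to 3.79 for eIF2, from -0.262 to 0.739 for eIF3 and from -2.93 to 1.72 for eIF4. It turned for eIF2 without H3K9ac replicate 1 (-1.97), for eIF3 without H3K9cr replicate 2 (-0.262) or H3K9ac replicate 2 (-0.0165), and for eIF4 without H3K9ac replicate 2 (1.72). Without centring, the median width difference over the 53 genes was 0.083. The cause was not tested.

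With a replicate block, 0 genes and 0 of the 53 passed the threshold (953 genes at an unadjusted p under 0.05, beside 882 without it). The deviations of same-numbered libraries correlated at 0.137 over 14862 genes, and with 2 pairs this does not show that the numbers pair the libraries.

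With 2 libraries a mark, p-values over single values cannot go below 0.333, and sites below the authors' threshold are not listed. Wider peaks and longer lists follow from depth as well as from signal, which the lists cannot separate. A peak shared with a neighbour counts for both genes.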

Other observations

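Symbols of the same form that are not protein-coding were not members. There are 12 of them, 11 pseudogenes and the lncRNA Eif2c5, and 10 had no peak in any library. Eif2s3x-ps1 had a peak in all 4 libraries (percentiles 78.9, 78.2, 75.1 and 78.8), but its window is shared with Zfp707 and no peak lay over the record itself. Eif3s6-ps4 had weak peaks nearby in 3 libraries, at the percentiles 19.4, 27.8 and 8.35, and none in H3K9ac replicate 2. By the criterion used for members, a peak in the gene or within 2.5 kb in all 4 libraries, 1 of the 12 was marked, beside 53 of the 56 protein-coding genes.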
